A study of Drosophila melanogaster with 2 samples.

Results

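The mitochondrial ribosomal protein genes (mRp genes) of Drosophila melanogaster were taken as all protein-coding genes of the dm6 gene models whose symbol starts with mRpL or mRpS followed by a number. There were 73 of them among 13945 protein-coding genes, 47 for the large subunit (mRpL) and 26 for the small subunit (mRpS). Binding of Asciz (CG14962), a zinc finger transcription factor, was measured by ChIP-seq with an antibody against GFP in whole embryos of mixed sex, aged 0 to 24 h, of a stable transgenic line whose Asciz protein carries GFP at the C-terminal end. The single group held 2 libraries, biological replicates 1 and 3, both from that line, and no second condition. The values are the deposited peak lists, which give no read numbers, so the depth of either library is unknown. Whole embryos mix many cell types and a day of development, and a peak does not say in which cells or at which age the protein was bound.

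The mitochondrial ribosome translates the few proteins encoded in mitochondrial DNA, which are core subunits of the respiratory chain and of ATP synthase. Its RNAs come from the mitochondrial genome, whereas all of its proteins are encoded in the nucleus, made on cytosolic ribosomes and imported. Part of these proteins descend from bacterial ribosomal proteins and keep their numbers, and others, mostly with higher numbers, have no bacterial counterpart.

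A gene was called bound when the summit of a peak in the optimal list lay within 500 bp of one of its transcription start sites. The optimal list holds the 5085 peaks that the authors kept for their reproducibility between the libraries. By this rule 10 of the 73 mRp genes (13.7%) were bound, against 1916 of the 13945 protein-coding genes (13.7%), so the share of bound mRp genes equalled the background. The bound members were mRpL11, mRpL20, mRpL23, mRpL24, mRpL39 and mRpL41 of the large subunit, and mRpS6, mRpS10, mRpS23 and mRpS26 of the small subunit. Binding was about as frequent in both subunits, at 6 of 47 large-subunit genes (12.8%) and 4 of 26 small-subunit genes (15.4%). It was also about as frequent among genes with a bacterial number (up to 36 for the large and 21 for the small subunit), at 6 of 42 (14.3%), as among those with higher numbers, at 4 of 31 (12.9%).

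Fewer mRp genes were left when each summit was given to its nearest start site. The summit was nearest to the member itself at 3 of the 73 mRp genes (4.11%), namely mRpL41, mRpL23 and mRpS6, against 1523 protein-coding genes (10.9%). At the other 7 bound members the start site of a divergent neighbour, a gene that starts upstream on the other strand, was nearer. Bound mRp genes were the owner of their summit, meaning the gene with the nearest start site, in 30% of cases, against 79.5% of all bound protein-coding genes. The 92 genes for the proteins of the cytosolic ribosome lay at the other end, with 69 bound (75%) and the summit nearest to the gene itself at 95.7% of these. The 84 nuclear genes for the respiratory chain and ATP synthase had 5 bound members (5.95%), of which 3 owned the summit.

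**Figure D1:**
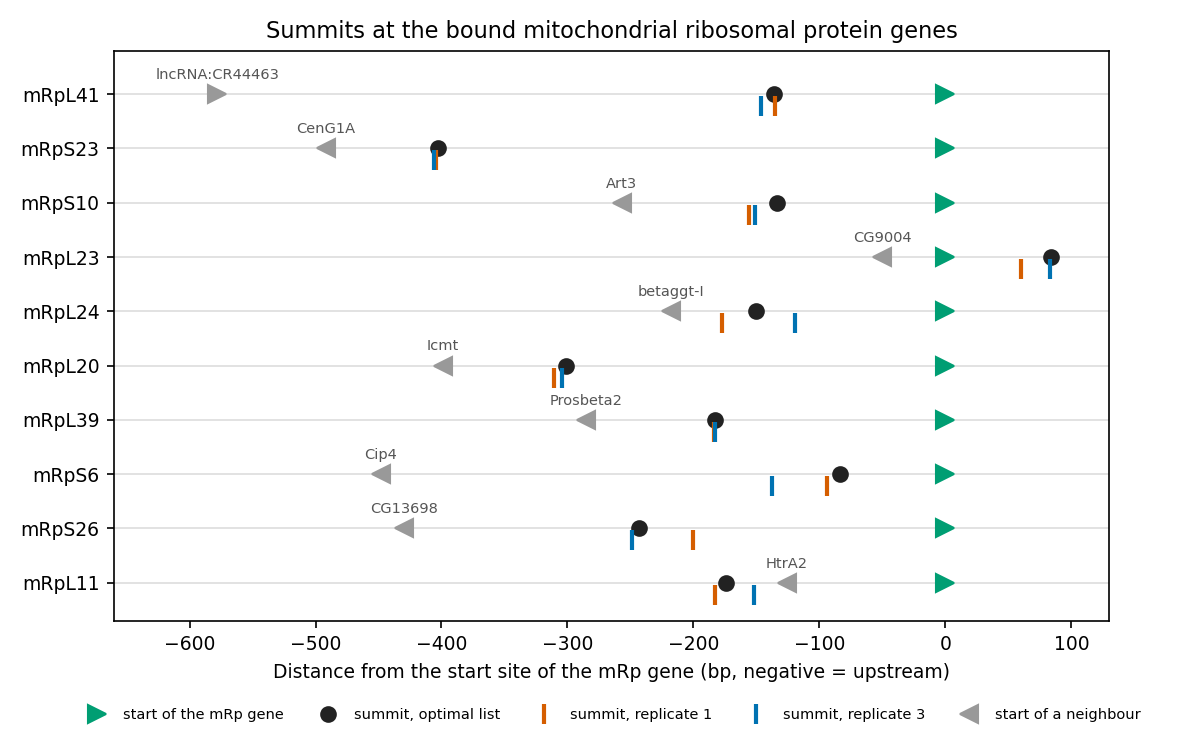
Positions of summits at the 10 bound mRp genes, as the distance in bp from the start site of the member nearest to the optimal summit (green, drawn to the right, negative values upstream). Black circles mark optimal summits, ticks mark the summits in the lists of replicates 1 and 3, and grey arrowheads mark start sites of other genes within 500 bp of the optimal summit, pointing the way they are transcribed; every summit but that of mRpL23 lies upstream of the member.

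Signal at the bound members was spread over more than an order of magnitude. The pooled signal, the peak caller's value in the list made from both libraries, ranged from 150 to 1840 with a median of 435, against a median of 239 over all bound protein-coding genes and 332 over the bound cytosolic ribosomal protein genes. Of the 10 bound mRp genes, 3 lay at peaks among the 30 highest of the optimal list (30%), against 20 of the 1916 bound protein-coding genes (1.04%). These 3 were mRpL41, mRpS23 and mRpS10, at ranks 10, 21 and 29, just inside that limit. The summits of mRpS23 and mRpS10 were nearer to their divergent neighbours. Ranks up to 500 were reached by 4 of the 10 (40%), against 16.4% of all bound protein-coding genes. The rank limits were not planned, so these shares only describe where the members fell. The highest peak of the list, at ctp, the gene of the dynein light chain and the known Asciz target, had a signal of 26348. The median signal of the optimal list was 205 and its lowest 127, and 3 members lay below that median. With only the peaks at or above that median, 7 mRp genes (9.59%) were bound, against 8.15% of all protein-coding genes.

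Among the large-subunit genes, mRpL41 carried the highest mRp peak. mRpL41 is a protein with no bacterial counterpart. Its pooled signal of 1840 ranked 10 in the optimal list, and the signal was 842 (rank 8) in replicate 1 and 1008 (rank 13) in replicate 3. The scale of the signal differs between lists, so each library's signal was also divided by its median over the optimal peaks, and this relative signal was 9.19 and 8.16 in replicates 1 and 3, a mean of 8.67 ± 0.726 (SD, n = 2). The peak covered chromosome arm 2R from 15217575 to 15217947 (dm6), and its summit lay 136 bp upstream of the mRpL41 start site on the minus strand. Replicates 1 and 3 placed it at -135 and -146 bp (negative values are upstream). mRpL41 was the only bound member with no divergent neighbour within 500 bp. The other start site within reach, of the long non-coding RNA lncRNA:CR44463 on the same strand, was 442 bp from the summit.

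mRpL23, whose bacterial relative sits at the exit of the peptide tunnel, had the next highest large-subunit peak and the only summit downstream of a member's start. Its pooled signal was 895 (rank 139), with 390 (rank 126) in replicate 1 and 507 (rank 145) in replicate 3, a relative signal of 4.18 ± 0.105 (SD, n = 2). The peak lay on 3L from 2373464 to 2373747, and the summit 84 bp inside the mRpL23 transcript that starts nearest to it. The divergent gene CG9004 starts 134 bp from the summit. Both libraries put the summit downstream as well, at 60 and 83 bp.

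The other 4 large-subunit members had a neighbour nearer to the summit in the optimal list and in both libraries. mRpL24 (bacterial relative: an early assembly protein of the large subunit) shared its peak with betaggt-I, which encodes the beta subunit of the geranylgeranyl transferase of type I. The summit lay 150 bp upstream of mRpL24 and 68 bp upstream of betaggt-I, and the relative signal was 2.49 and 2.36 in replicates 1 and 3 (2.43 ± 0.0955, SD, n = 2). At mRpL20, also an early assembly protein in bacteria, the summit was 301 bp upstream and 98 bp upstream of Icmt, the methyltransferase that acts on prenylated proteins; the relative signal was 1.87 and 1.43 in replicates 1 and 3 (1.65 ± 0.311). Both betaggt-I and Icmt encode enzymes of the protein prenylation pathway, which was seen after their values and was not looked for elsewhere in the list.

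mRpL39, which has no bacterial counterpart, shared its peak with Prosbeta2, a catalytic-ring subunit of the proteasome. Its summit lay 183 bp upstream of mRpL39 and 102 bp upstream of Prosbeta2, in the same place within 1 bp in both libraries, and the relative signal was 1.09 and 0.852 in replicates 1 and 3 (0.969 ± 0.165, SD, n = 2). The weakest bound member was mRpL11, a protein of the stalk base where translation factors act. Its pooled signal was 150 (rank 4034), and the relative signal was 0.755 and 0.589 in replicates 1 and 3 (0.672 ± 0.117). The summit was 174 bp upstream of mRpL11 but 48 bp inside the transcript of HtrA2, which encodes a mitochondrial serine protease. mRpL11 was also the only bound member outside the strongest 5085 regions of a library, with rank 5594 in replicate 3.

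The sequences between the paired start sites of mRpL24 and mRpL39 show where the summits fall in short shared promoters, and the 101 bp round the mRpL20 summit show a window of 82.2% A+T. All are from dm6 and read 5′ to 3′, and capitals mark the summit base of the optimal list with 5 bases on either side. mRpL24 and mRpL39 start at the left end and are read to the left, and betaggt-I and Prosbeta2 start at the right end.
mRpL24 and betaggt-I, chr2L:4945361-4945579, plus strand: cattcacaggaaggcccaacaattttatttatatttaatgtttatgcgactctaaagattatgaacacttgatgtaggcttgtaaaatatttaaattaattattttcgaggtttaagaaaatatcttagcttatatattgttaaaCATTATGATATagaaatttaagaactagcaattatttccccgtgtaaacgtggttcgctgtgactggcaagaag
mRpL39 and Prosbeta2, chr3L:14999666-14999951, plus strand: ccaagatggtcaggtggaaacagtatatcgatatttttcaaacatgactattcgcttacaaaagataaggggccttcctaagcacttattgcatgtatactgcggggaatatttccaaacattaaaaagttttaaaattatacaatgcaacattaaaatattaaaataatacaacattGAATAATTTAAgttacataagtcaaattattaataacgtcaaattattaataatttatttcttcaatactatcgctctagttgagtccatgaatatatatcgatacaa
mRpL20, chr3L:13018118-13018218, plus strand: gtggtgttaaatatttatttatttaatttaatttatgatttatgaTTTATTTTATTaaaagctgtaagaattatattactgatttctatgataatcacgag

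Of the small-subunit genes, mRpS23 and mRpS10 had peaks nearly as high as that of mRpL41. mRpS23 has no bacterial counterpart. Its pooled signal was 1567 (rank 21), with 627 (rank 27) in replicate 1 and 937 (rank 20) in replicate 3, and a relative signal of 7.21 ± 0.521 (SD, n = 2). The peak covered 2L from 13835313 to 13835624. Its summit was 403 bp upstream of mRpS23 and 89 bp upstream of CenG1A, a gene for an Arf GTPase-activating protein, and the 3 lists placed it within 3 bp of each other. It was the most distant summit among the bound members.

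mRpS10, whose bacterial relative lies in the head of the small subunit, had a pooled signal of 1510 (rank 29). Replicate 1 gave 658 (rank 18) and replicate 3 gave 841 (rank 35), a relative signal of 6.99 ± 0.262 (SD, n = 2). The peak lay on 3R from 15229362 to 15229702, and its summit was nearly midway between the starts of mRpS10, at 134 bp, and of Art3, an arginine methyltransferase gene, at 123 bp. The summits of replicates 1 and 3, at -156 and -151 bp from mRpS10, lay closer to Art3. The lists spread this summit over 22 bp, and Art3 was the nearer gene in each of them, by only 11 bp in the optimal list.

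The other small-subunit peaks were weaker. mRpS6, whose bacterial relative lies in the platform of the small subunit, had a pooled signal of 197 (rank 2707). The relative signal was 1.15 and 0.755 in replicates 1 and 3 (0.951 ± 0.277, SD, n = 2), the largest difference between libraries among the bound members (log2 of replicate 3 over replicate 1, -0.60). The summit lay 84 bp upstream of mRpS6 and 364 bp upstream of Cip4, an F-BAR protein gene. mRpS26, which has no bacterial counterpart, had a pooled signal of 186 (rank 2981) and a relative signal of 0.821 and 0.973 in replicates 1 and 3 (0.897 ± 0.107). Its summit was 243 bp upstream of mRpS26 and 187 bp upstream of CG13698. Replicate 1 put it nearer to mRpS26, at -200 bp, and replicate 3 nearer to CG13698, at -249 bp from mRpS26, so the owner of this summit changed with the library.

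Sequence at the small-subunit summits is shown for the whole interval between mRpS10 and Art3, where the summit lies nearly in the middle, and for the 101 bp round the summits of mRpS23 and mRpS6. As above, these are dm6 sequences read 5′ to 3′ with the summit base and 5 bases on either side in capitals. Art3 starts at the left end of the first and mRpS10 at its right end.
mRpS10 and Art3, chr3R:15229408-15229665, plus strand: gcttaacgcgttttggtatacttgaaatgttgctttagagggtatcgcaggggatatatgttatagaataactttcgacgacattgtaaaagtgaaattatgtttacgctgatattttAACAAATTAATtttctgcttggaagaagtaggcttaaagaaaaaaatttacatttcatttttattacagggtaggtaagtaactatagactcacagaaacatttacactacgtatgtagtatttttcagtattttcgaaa
mRpS23, chr2L:13835425-13835525, plus strand: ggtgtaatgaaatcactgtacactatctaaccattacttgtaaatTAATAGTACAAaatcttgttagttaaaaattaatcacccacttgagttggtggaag
mRpS6, chr3L:4364416-4364516, plus strand: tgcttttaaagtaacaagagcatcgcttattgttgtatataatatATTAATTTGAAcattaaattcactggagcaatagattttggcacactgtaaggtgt

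**Figure D2:**
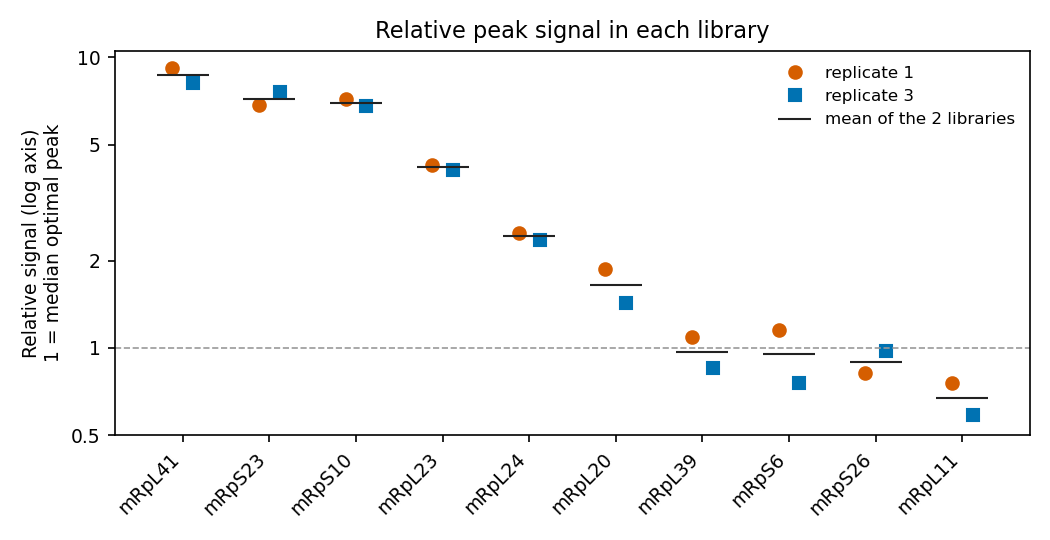
Relative signal at the 10 bound mRp genes in replicate 1 (circles) and replicate 3 (squares), with the mean of the 2 libraries as a bar, on a log axis where 1 (dashed) is the library's median over the optimal peaks. The order of the 5 highest members, from mRpL41 to mRpL24, differs between the libraries only in the exchange of mRpS23 and mRpS10.

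The libraries differed little at these peaks. Every bound member had a region in both libraries' lists, as did 1604 of the 1732 peaks within 500 bp of a protein-coding start site and 4905 of all 5085. The median absolute log2 difference in relative signal between replicates 3 and 1 was 0.208 over the 10 peaks. It was 0.286 over the peaks near any protein-coding start site that had a region in both lists. None of the 10 had a difference over 1 in log2, against 108 of 1604 (6.73%). Replicate 3 was the higher at 2 of the 10, mRpS23 and mRpS26. It was the higher at 906 of the 1604 peaks near a protein-coding start site and at 2608 of all 4905. The median log2 of replicate 3 over replicate 1 was -0.13 over the 10 peaks, against 0.06 over the 1604. The optimal list keeps peaks for their reproducibility, which limits what this comparison can show.

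Wider lists brought in more mRp genes, at a share near the background in the pooled list and in replicate 1 and above it in replicate 3. No test was made of these differences. Each relaxed list holds 30000 regions, peaks and background together, and most of its regions are not in the optimal list. In the pooled relaxed list 27 mRp genes (37%) had a summit within 500 bp, against 35.2% of protein-coding genes, and in that of replicate 1 there were 24 (32.9%), against 32.7%. Replicate 3 had a region at 42 mRp genes (57.5%), against 41.4%. When each library was cut to its strongest 5085 regions, the counts were 13 (17.8%, against 12.8%) in replicate 1 and 16 (21.9%, against 15.2%) in replicate 3. The mRp share with the summit nearest to the gene itself was below the background in all 6 lists, from 4.11% against 10.9% in the optimal list to 32.9% against 35.5% in the relaxed list of replicate 3. The values between these were 6.85% against 10.2% and 8.22% against 12% in the strongest regions of replicates 1 and 3, 20.5% against 30.6% in the pooled relaxed list, and 16.4% against 28.4% in that of replicate 1.

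**Figure D3:**
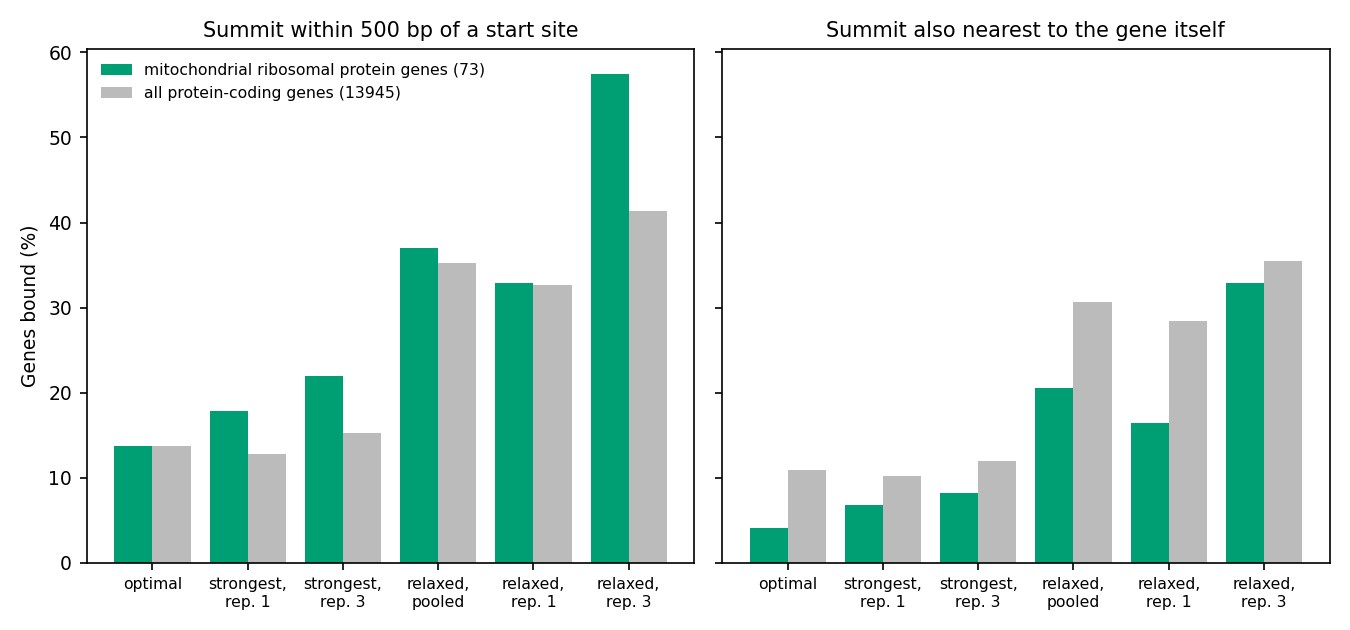
Percent of the 73 mRp genes (green) and of all 13945 protein-coding genes (grey) with a summit within 500 bp of a start site (left), and with such a summit nearest to the gene itself (right), in the optimal list, the 5085 strongest regions of each library and the relaxed lists. The green bar is lower than the grey one in all 6 lists of the right panel; in the left panel both are 13.7% in the optimal list, and green is higher in the other 5.

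Over the 3 relaxed lists, 45 of the 73 members had a region in at least 1 (61.6%), against 48.7% of all protein-coding genes. A region in all 3 was found at 21 (28.8%, against 25.2%), and 28 had none (38.4%, against 51.3%). The list of replicate 3 was the only one with a region at 16 members (21.9%, against 8.44%) and that of replicate 1 at 2 (2.74%, against 4.12%), and both libraries had one at 21 (28.8%, against 26.2%). All 10 members of the optimal list were among the strongest regions of replicate 1, and 9 were among those of replicate 3. The optimal list was itself kept for reproducibility between the libraries, and the same share over all bound genes is not given here. These counts are therefore no trait of the mRp genes. The strongest regions of replicate 1 added mRpL34, mRpL37 and mRpS18B, at ranks 4356, 5001 and 4374. Those of replicate 3 added mRpL32, mRpL33, mRpL47, mRpL54, mRpS16, mRpS2 and mRpS22. The region at mRpL32 had rank 3663, above that of the bound mRpS6 in the same library (3937), and 5 of the others had ranks from 4370 (mRpL47) to 4577 (mRpL33).

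mRpS2 stood apart from them. mRpS2 is the mitochondrial relative of a bacterial small-subunit protein bound late in assembly. In replicate 3 it had a region of signal 314 at rank 462, stronger by rank than the region at mRpL24, with its summit 145 bp upstream of mRpS2 and 77 bp from Mon1, which encodes part of the exchange factor for Rab7. Replicate 1 and the pooled list had no region there. Among the 462 regions of replicate 3 of at least this strength, 14 had no region in replicate 1 and 3 had none in the pooled list. The region was thus seen in 1 library's list, and mRpS2 was not counted as bound.

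**Figure D4:**
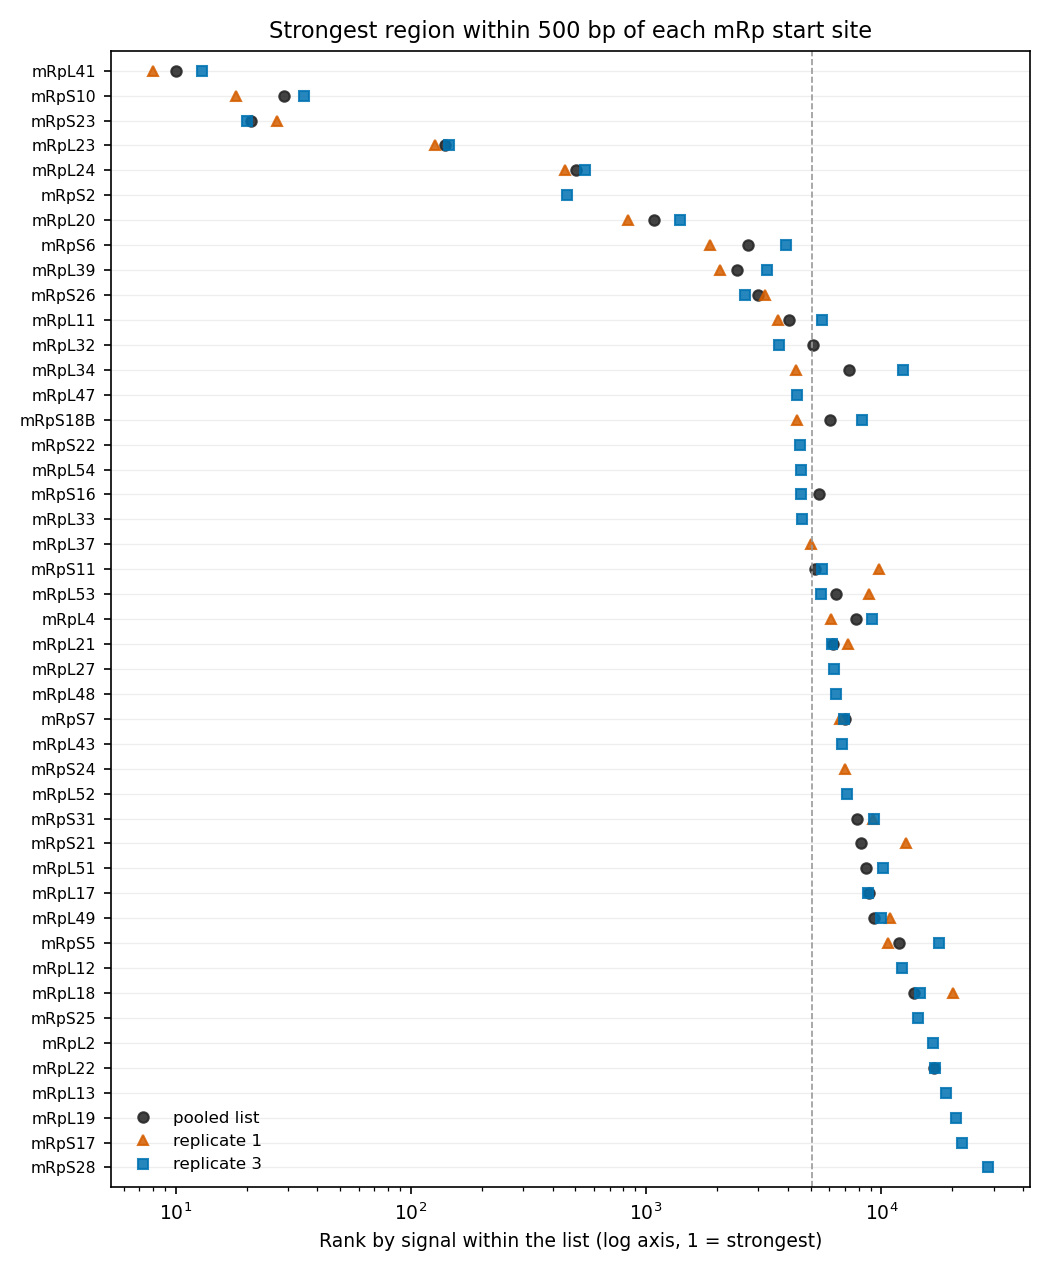
Rank by signal of the strongest region within 500 bp of a start site for the 45 mRp genes with a region in at least 1 relaxed list, in the pooled list (circles), replicate 1 (triangles) and replicate 3 (squares), on a log axis with the strongest at the left. The dashed line is rank 5085, the length of the optimal list; mRpS2 has a single square far to its left, and 16 genes have a square and no other symbol.

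Just outside the optimal list were mRpL32 (pooled rank 5146), mRpS11 (5203), mRpS16 (5448), mRpS18B (6060) and mRpL21 (6254), with pooled signals of 125, 125, 120, 112 and 109, against 150 at mRpL11, the lowest member inside. At mRpL32, mRpS11 and mRpS18B the pooled summit was nearest to the member, at -71, 10 and -121 bp. At mRpS16 and mRpL21 the divergent neighbour was nearer. One more gene, mRpL2, had an optimal summit between 500 and 1000 bp away, at 753 bp upstream and beyond the start of FoxK, a forkhead factor gene. The median distance from an mRp gene to the nearest optimal summit was 7087 bp (quartiles 2002 and 14011), against 9332 bp (quartiles 2571 and 22528) over all protein-coding genes, and 26 members (35.6%) had one within 5000 bp, against 35.3%.

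A divergent gene often starts close to an mRp gene. A divergent neighbour started within 500 bp upstream of 53 of the 73 mRp genes (72.6%), against 29.6% of all protein-coding genes, 41.3% of cytosolic ribosomal protein genes and 46.4% of respiratory chain and ATP synthase genes. Within 200 bp there was one at 22 mRp genes (30.1%), against 12% of all protein-coding genes. The median gap was 264 bp at these mRp genes and 242 bp over all protein-coding genes with such a neighbour. Of the 53, 9 were bound (17%), against 20.7% of all protein-coding genes with a divergent neighbour. The summit was nearest to the gene itself at 2 of these 9 (22.2%), against 60% of the bound protein-coding genes with this layout, and 93.8% of the bound cytosolic ribosomal protein genes with it. The share of owned summits was therefore also below the background when genes with a divergent neighbour were set side by side, with 9 bound members behind it. Of the 20 members without such a neighbour 1 was bound (5%), mRpL41, against 10.8% of all protein-coding genes without one.

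The summits at mRp genes were rich in A and T. The 101 bp centred on the summit held 75.2 ± 5.74% A+T (SD over 10 summits, range 69.3 to 86.1), against 66 ± 9.61% over the 1732 summits within 500 bp of a protein-coding start site and 66.3 ± 8.77% over all 5085. All 10 windows of 101 bp exceeded these means, with mRpL39 (86.1%) and mRpL20 (82.2%) the highest and mRpS23 and mRpS26 (69.3% each) the lowest. In windows of 201 bp the difference was smaller, at 69.5 ± 4.35% against 64.5 ± 7.49% and 64.6 ± 6.99%, and the lowest of the 10, at 63.7%, was below these means. At the start sites themselves 101 bp held 57.3 ± 6.41% A+T at the 73 mRp genes and 56.9 ± 8.59% at all protein-coding genes, but over 201 bp the mRp genes were higher, at 62.5 ± 4.9% against 58.4 ± 7.66%. Of 6 motifs searched on both strands in the 101 bp summit windows, 5 had no match at any of the 10, namely the DNA replication-related element DRE (TATCGATA), GAGAG, the core of Motif 1 (GGTCACAC), the E-box CAGCTG and TTANNTCA. These were present in 0.944%, 10.7%, 0.492%, 3.23% and 10.4% of all optimal windows. The A+T 8-mer AATATTTA was found at 1 of the 10 (10%), mRpL20, against 6.51% of all optimal windows. In windows of 201 bp the DRE, GAGAG and the E-box were each at 1 of the 10 (10%), against 1.99%, 23.9% and 7.49% of all optimal windows, and AATATTTA was at 2 (20%), against 11%. This 8-mer was searched because earlier analysis of these peaks had ranked it first.

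The start sites of the mRp genes, in contrast to their summits, often carried an E-box. CAGCTG lay within the 101 bp centred on the first start site of 35 of the 73 genes (47.9%), against 9.34% of all protein-coding genes, 7.61% of cytosolic ribosomal protein genes and 19% of respiratory chain and ATP synthase genes. Its first base was at a median of 8 bp downstream of the start, over a range of -45 to 38 bp, with 22 downstream and 13 upstream. Bound and unbound members had it alike, at 5 of 10 (50%) and 30 of 63 (47.6%), against 13.4% of bound and 8.69% of unbound protein-coding genes. Over 201 bp the E-box was at 38 mRp start sites (52.1%), against 13.8% of all protein-coding genes. Among genes with a divergent neighbour the E-box was at 49.1% of the mRp genes and 14.1% of all protein-coding genes. The bound members with it were mRpL11, mRpL23, mRpL24, mRpL41 and mRpS6. The hexamer at the start sites of 4 of these, and of mRpL32 and mRpS2, follows on the strand of the gene in dm6, with the E-box in capitals and 12 bases on either side.
mRpL11: cagcaataccatCAGCTGttgctgcttctt
mRpL23: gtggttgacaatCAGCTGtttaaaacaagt
mRpL24: ttcagttctcaaCAGCTGattgcaagccgc
mRpS6: ctttccttgcatCAGCTGttaacactatca
mRpL32: atatcgatagcaCAGCTGtttcctcttgcg
mRpS2: aacactacccacCAGCTGtttaccaaaatc

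These hexamers begin -5, -28, 20, 14, -16 and -11 bp from the start sites of mRpL11, mRpL23, mRpL24, mRpS6, mRpL32 and mRpS2, at 3R 14511833, 3L 2373727, 2L 4945336, 3L 4364564, 3R 31252856 and 2L 4850425, the lowest base of each in dm6. The mRpL23 hexamer covers the start site of the divergent CG9004, at 3L 2373728. The DRE was at the start site of 14 mRp genes (19.2%), against 5.56% of all protein-coding genes and 16.3% of cytosolic ribosomal protein genes. Among genes with a divergent neighbour the shares were close, at 13.2% of the mRp genes and 10.2% of all protein-coding genes. Among genes without one they were 35% of 20 mRp genes and 3.61% of all protein-coding genes. The DRE was at 3 of the 10 bound members and at 11 of the 63 unbound members (17.5%), against 6.52% of bound and 5.41% of unbound protein-coding genes. Among cytosolic ribosomal protein genes the DRE was at 9 of 69 bound (13%) and 6 of 23 unbound genes (26.1%). These counts are small, and no difference between bound and unbound genes was tested. The bound mRp genes with the DRE were mRpS23, mRpL20 and mRpL39, which lack the E-box there. Their DRE lay 9, 10 and 32 bp upstream of the start site, counted to its far end, while the summits lay 403, 301 and 183 bp upstream. mRpS23 and mRpL39 each had a second DRE farther upstream, at 209 and 282 bp. That of mRpL39 lies at the start site of Prosbeta2, which is 285 bp from the mRpL39 start. The core of Motif 1 was at 8 mRp start sites (11%), against 5.59% of all protein-coding genes. The share was similar among cytosolic ribosomal protein genes (12%) and respiratory chain and ATP synthase genes (13.1%). No bound member had this core, against 6.89% of bound protein-coding genes. mRpS10 and mRpS26 were the bound members with none of these 3 motifs at the start site.

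**Figure D5:**
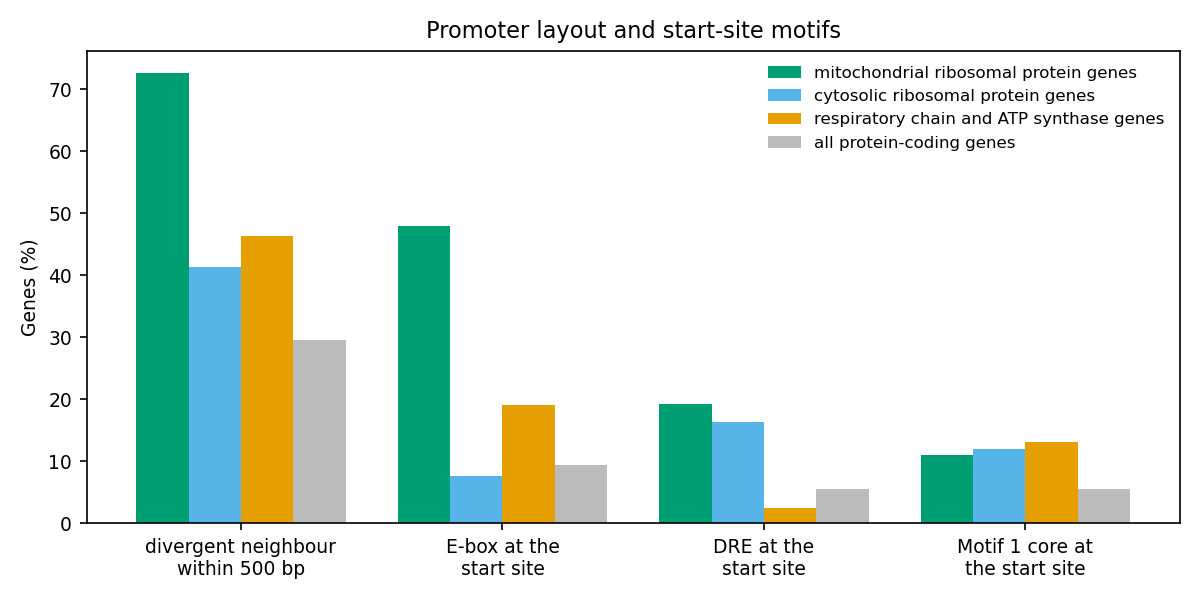
Percent of mRp genes (green), cytosolic ribosomal protein genes (blue), respiratory chain and ATP synthase genes (orange) and all protein-coding genes (grey) with a divergent neighbour within 500 bp, and with the E-box, the DRE or the Motif 1 core within the 101 bp centred on the start site. The mRp bar is the highest of the 4 for the divergent neighbour (72.6%), the E-box (47.9%) and the DRE (19.2%).

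Binding was also counted at other nuclear genes that serve mitochondrial gene expression. Of 52 such genes 4 were bound (7.69%), beside 10 of 73 mRp genes and 13.7% of all protein-coding genes. No gene was bound among 10 mitochondrial translation factors, 19 genes for mitochondrial tRNA synthetases and the amidotransferase, and 3 mitoribosomal proteins with other symbols. Of these 3, tko and bonsai, which encode mitochondrial relatives of small-subunit proteins, had no region in any list, and their nearest optimal summits were 24813 and 19381 bp away. All 4 bound genes were among the 20 for mitochondrial transcription, DNA maintenance and RNA processing, so 20% of that list was bound, against 13.7% of all protein-coding genes. PNPase, a mitochondrial RNA-degrading enzyme, had the highest, with a pooled signal of 1660 (rank 14) and the summit 79 bp upstream. SLIRP2, an RNA-binding protein gene, followed with 834 (rank 164, 110 bp upstream), then mtSSB, for the mitochondrial single-stranded DNA-binding protein, with 270 (rank 1626, 397 bp upstream). These 3 owned their summits (15% of the 20, against 10.9% of all protein-coding genes). RNaseZ, for the tRNA 3′-processing enzyme, had 160 (rank 3677), with the divergent CG12909 nearer to the summit.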

How the data were processed

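Asciz-GFP ChIP-seq peak lists in narrowPeak layout, in dm6, were used: 1 relaxed list for each of 2 libraries, 1 pooled relaxed list and 1 optimal list. Per the deposited file listings, the optimal list was derived from the others by the irreproducible discovery rate. Alignment and peak calling software is not given in the sources used here. Signal values are those the authors deposited for each peak, on list-specific scales, and served to rank peaks inside each list. The deposited −log10 q values are tied over many peaks and were left out. Summits came from the deposited offsets. The dm3 lists were not used here, so that builds were not mixed. Read counts are not in these files, so no counting error is given.

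Gene models were Ensembl release 115 (BDGP 6.54) without transposable elements, on 2L, 2R, 3L, 3R, 4 and X, and sequence was the RefSeq copy of the same assembly. A summit counted for every gene with a start site within 500 bp, and its owner was the gene of the nearest start site of any biotype. A library's region was matched to a peak by an overlap of at least 1 bp, taking the strongest. Relative signal is the signal over that library's median at the optimal peaks. Start-site windows were centred on the 5′-most start site. Motifs were searched on both strands. With 1 group and lists chosen for these data, no test was run, and each share stands beside that of all protein-coding genes. The members and lists were chosen with earlier results of these data known. Of 58 symbols for other mitochondrial gene expression genes, mEFTG2, Guf1, HisRS-m, ThrRS-m and LRPPRC2 matched no gene.

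Genes named are the bound members, genes starting within 500 bp of the same summit, the 5 unbound members with the highest pooled regions, members with an optimal summit 500 to 1000 bp away, members among the strongest regions of 1 library only, tko, bonsai, the bound genes of the other lists and ctp. The sequences shown, Mon1 and FoxK were chosen after their values were seen. The alternatives were windows of 200 and 1000 bp, the nearest start site only, stronger peaks only, region overlap, each library alone, the pooled relaxed list, other matches between lists, other gaps and a wider sequence window. Python 3.11.15, numpy 2.4.6, pandas 2.3.3 and matplotlib 3.10.9 were used, and the assignment of summits to genes was tested on simulated data, where 200 of 200 planted genes were recovered.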

Additional observations from a re-analysis of the deposited data

How the results depend on the processing

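The count of bound mRp genes (10) was 7 (9.59%, against 8.52% of all protein-coding genes) and 11 (15.1%, against 17%) with windows of 200 and 1000 bp, 7 (9.59%, against 8.15%) with peaks at or above the median signal, and 10 (13.7%, against 15.3%) by region overlap, so the sign of the small difference from the background depended on the setting. With 1 library left out, using the strongest 5085 regions of the other, it ranged from 13 to 16 (17.8%, against 12.8%, to 21.9%, against 15.2%), and it included all 10 without replicate 3 and 9 without replicate 1. The optimal list keeps peaks for their reproducibility, which limits what this overlap can show. The pooled relaxed list gave 27 (37%, against 35.2%), and the nearest start site only gave 3 (4.11%, against 10.9%). The count of members nearest to the summit (3) was 2 or 3 under the other windows, threshold and overlap, 5 to 6 with 1 library left out and 15 in the pooled relaxed list, below the background share in each of these. The median signal of 435 became 522 and 349 with windows of 200 and 1000 bp, 895 with the nearest start site only and 895 with peaks at or above the median. Within 200 bp, 22 members (30.1%) had a divergent neighbour, against 12% of all protein-coding genes. In windows of 100 bp either side the A+T share was 69.5%, against 64.5% at promoter summits. Of the other mitochondrial genes, under alternatives chosen after seeing the data, 10 (19.2%, against 35.2%) had a region in the pooled relaxed list and 3 to 6 were bound under the other settings, at shares below the background in each. The cause of these shifts was not tested. The median difference between libraries stayed at 0.208 under both other matches. No paired analysis was possible because there is 1 group. With 10 bound members, 1 gene moves a share of them by 10 percentage points, and the unknown depth of the libraries limits every statement on members without a region.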
